A study of Homo sapiens with 8 samples.

Results

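The regions described here are stretches of opened DNA that were found in both vitamin C libraries of a KAS-seq experiment and had no peak in at least 1 of its 2 control libraries. Peaks of both vitamin C lists on chromosomes 1 to 22 and X were merged, which gave 5834 merged regions met by a peak of each list. Of these, 325 were overlapped by no peak in 1 or both controls. They comprised 48 regions missing from both controls, 87 missing from control replicate 1 alone and 190 missing from control replicate 2 alone. Members were defined by the presence or absence of called peaks, so the number of members and the strength of a member in a control that lacks it are descriptions and were not tested. The members made up 5.57% of the 5834 regions, and those missing from both controls 0.823%.

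The titles of all libraries give HEK293T, a widely used line of human embryonic kidney origin, whereas the number in the cell line label rises from sample to sample. The titles were followed here. Control cells were kept in medium without vitamin C, and treated cells received 0.5 mM vitamin C (ascorbic acid) for 10 min. Labelling followed in both with N3-kethoxal (5 mM, 10 min), and each condition has 2 labelled libraries. In a population of cells, fewer cells with an open site and less opening per cell cannot be told apart. The 4 unlabelled input libraries were not analysed here. The labels do not say whether replicates came from separate cultures, so the spread between them may be technical. Among 10 genes chosen as HEK293T markers, HOXA9, HOXC9 and VIM had a peak within 1 kb of a gene end in all 4 libraries, while LIN28B, PAX2, NEFL, NEFM and INA had none in any library. The remaining markers had such a peak in both controls and in only 1 vitamin C library each. None of 16 genes of other tissues had one.

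KAS-seq reads single-stranded DNA. N3-kethoxal reacts with guanines that are not base-paired, and the labelled fragments are captured and sequenced, so the open bubble around a transcribing RNA polymerase, and other melted DNA, appears as a peak. In most cells the strongest such signal lies over highly transcribed genes, at their starts, in their bodies and in the stretch where transcription ends. Vitamin C is a reductant and a cofactor of iron-dependent dioxygenases, among them enzymes that remove methyl groups from DNA and histones. The comparison asks which places were called open in both vitamin C libraries and lacked a called peak in one or both controls. Of the 325 members, 277 lacked a peak in a single control and were called open in the other. Whether vitamin C opened the members was not tested.

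The control lists held 30351 and 24111 peaks and the vitamin C lists 9816 and 9896. Read totals are not given in the peak lists. The fragment pileup at each summit was solved from the deposited fold and p (100% of peaks in each list), and the genome-wide background came to 0.817 and 0.849 fragments for control replicates 1 and 2, and to 1.23 and 0.871 for vitamin C replicates 1 and 2. At that background the smallest pileup called was 6 fragments in each control, 10 in vitamin C replicate 1 and 7 in vitamin C replicate 2.

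A few members lay on or just before the start of a gene. The 5 annotated starts at which a member covered at least 200 of the 250 bases before the start are printed here, since they show the DNA that was called open with vitamin C and not in 1 control. Each runs 5′ to 3′ toward the gene, from RefSeq (GRCh38.p14), and capitals mark the bases inside the member.
KAT7 (chr17:49788431-49788680, plus strand): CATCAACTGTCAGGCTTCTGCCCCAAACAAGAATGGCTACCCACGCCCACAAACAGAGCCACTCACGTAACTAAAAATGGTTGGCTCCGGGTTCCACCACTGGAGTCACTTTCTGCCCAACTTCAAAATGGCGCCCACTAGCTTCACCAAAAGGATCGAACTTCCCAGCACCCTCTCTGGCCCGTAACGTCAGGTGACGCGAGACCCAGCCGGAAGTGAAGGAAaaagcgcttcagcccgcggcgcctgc
SRP54 (chr14:34982742-34982991, plus strand): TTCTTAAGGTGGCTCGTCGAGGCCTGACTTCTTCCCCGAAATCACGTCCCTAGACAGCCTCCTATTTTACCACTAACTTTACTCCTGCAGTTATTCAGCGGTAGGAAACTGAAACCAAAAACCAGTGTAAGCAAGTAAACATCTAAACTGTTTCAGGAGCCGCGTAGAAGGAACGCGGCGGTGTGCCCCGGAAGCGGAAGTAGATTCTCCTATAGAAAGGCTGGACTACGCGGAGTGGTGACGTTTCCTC
UBL5 (chr19:9827668-9827917, plus strand): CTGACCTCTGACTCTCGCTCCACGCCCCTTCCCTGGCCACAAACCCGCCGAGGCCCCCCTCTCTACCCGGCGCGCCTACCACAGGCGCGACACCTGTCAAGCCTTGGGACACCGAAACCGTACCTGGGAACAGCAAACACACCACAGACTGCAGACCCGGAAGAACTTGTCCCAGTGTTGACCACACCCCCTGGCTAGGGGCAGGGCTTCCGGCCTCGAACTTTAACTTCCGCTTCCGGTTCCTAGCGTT
RNF145 (chr5:159208074-159208323, minus strand): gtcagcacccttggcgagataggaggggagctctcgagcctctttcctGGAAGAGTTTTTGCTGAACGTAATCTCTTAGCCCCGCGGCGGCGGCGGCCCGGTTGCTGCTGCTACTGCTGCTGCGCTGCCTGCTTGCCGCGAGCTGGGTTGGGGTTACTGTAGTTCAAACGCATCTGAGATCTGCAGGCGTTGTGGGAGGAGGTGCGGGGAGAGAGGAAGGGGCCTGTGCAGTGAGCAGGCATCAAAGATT
R3HDM2 (chr12:57342457-57342706, minus strand): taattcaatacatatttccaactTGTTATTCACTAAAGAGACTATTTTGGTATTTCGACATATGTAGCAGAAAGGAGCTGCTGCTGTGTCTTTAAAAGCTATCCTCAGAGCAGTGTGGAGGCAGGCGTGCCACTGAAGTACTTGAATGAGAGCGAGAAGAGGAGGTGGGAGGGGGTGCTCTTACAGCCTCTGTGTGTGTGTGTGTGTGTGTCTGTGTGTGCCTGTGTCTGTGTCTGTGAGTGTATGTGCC

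KAT7 encodes a histone acetyltransferase, SRP54 a subunit of the signal recognition particle, UBL5 a ubiquitin-like protein of splicing and RNF145 a membrane ubiquitin ligase. The region at KAT7 ends before the KAT7 start and overlaps the neighbouring gene FAM117A. It was missing from control replicate 2, whose nearest peak was 11936 bp away, while control replicate 1 held a peak at the 92.8th percentile of its list. Its summits reached 20 fragments in vitamin C replicate 1 and 11 in replicate 2. SRP54 and UBL5, whose 250 bases lay wholly inside a member, were also missing from control replicate 2, with gaps of 347 and 3664 bp. RNF145 was missing from control replicate 2 with a gap of 270 bp. R3HDM2 was missing from control replicate 1 with a gap of 10937 bp, and its 250 bases held 3 CpG sites and 46.4% G and C, against 15 CpG sites and 50% at SRP54 and 17 and 62.8% at UBL5. Each of these 5 regions was thus called open in 1 of the 2 controls as well.

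Few members lay on or just before annotated starts. Members overlapped the 250 bases before 18 annotated coding starts of 17 genes. Their median G and C content was 58.4%, the same as at the 733 starts under any region of both vitamin C lists, and 62.0% over all 22132 starts. The letters TATAAA, read on both strands, were present at 5.56% of the 18 starts, 10.5% of the 733 and 9.0% of all. CCAAT was present at 22.2%, 46.7% and 32.7%, and GGGCGG at 50%, 57.3% and 53.7%. The 18 starts give counts too small to separate these shares. A start could be placed for 15812 of 19974 coding genes.

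Members were mostly narrow and of low to middling strength. Their median width was 361 bp (range 210 to 961), against 548 bp over all 5834 regions, and 330 bp for those missing from both controls. Strength was taken as the percentile of a peak's fold within its own list, averaged over both vitamin C libraries. The mean was 38.6 for members, 35.7 for those missing from both and 57.2 over all regions. The summits of members held a median of 19 fragments in vitamin C replicate 1 (range 10 to 126) and 14 in replicate 2 (range 7 to 113), against 26 and 18 over all regions. Those missing from both controls held a median of 17 and 12.5 fragments, and none exceeded 49 and 37. The mean percentile of members was 38.5 in vitamin C replicate 1 and 38.8 in replicate 2, while single members could differ widely, as CCNB2 did at 82.3 and 5.93.

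The share of regions missing from a control fell steeply toward the strong end of the vitamin C lists. In 10 bins of equal size it was 9.93% (95% Clopper-Pearson interval 7.63 to 12.6) in the weakest, 13.0% (10.4 to 16.0) in the second, 6.17% (4.36 to 8.45) in the fifth and 1.37% (0.594 to 2.69) in the eighth. In the bin next to the strongest 2 of 583 regions were missing from a control, and in the strongest 0 of 584 (interval up to 0.63%, and up to 0.514% by the limit of 3 counts used for shares of 0 below). Of the 48 regions missing from both controls, 1 lay in the 4 strongest bins. The intervals cover counting error only.

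**Figure D1:**
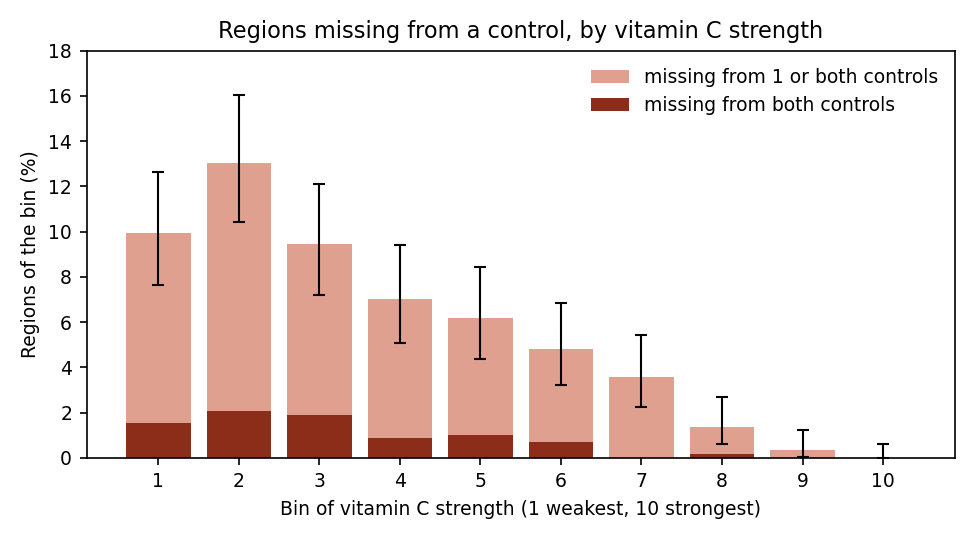
Share of the regions of both vitamin C lists that were missing from 1 or both controls (bar height) and from both controls (dark part), in 10 bins of vitamin C strength with 583 or 584 regions each; error bars are 95% Clopper-Pearson intervals. The share is 13.0% in the second bin and 0 in the strongest.

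Members lay more often inside gene bodies than the other regions did. The strongest summit was within 1 kb of an end of a protein-coding gene in 84 of 325 members (25.8%, 95% interval 21.2 to 31.0), against 32.1% of all 5834 regions. It lay deeper in a gene body in 187 (57.5%, 52.0 to 63.0), against 41.8%. Flanks within 5 kb of a gene held 36 members (11.1% against 16.7%) and other sequence 18 (5.54% against 9.29%). Among those missing from both controls, 26 of 48 lay in gene bodies (54.2%, 39.2 to 68.6) and 13 at gene ends. The shares depend on the window. With windows of 500 bp and 2 kb, 14.5% and 35.7% of members lay at gene ends and 64.9% and 50.2% in gene bodies. Without vitamin C replicate 1 the share at gene ends was 16.4%.

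The comparison of gene bodies with gene ends was repeated among regions of like vitamin C strength. With the 5834 regions divided by vitamin C strength into 3 groups of equal size, 11.5% of gene-body regions (95% interval 9.64 to 13.6) and 9.47% of gene-end regions (6.94 to 12.5) of the weakest group were missing from a control. In the middle group the shares were 6.60% and 5.94%, and in the strongest 1.96% (0.981 to 3.48) and 0.501% (0.137 to 1.28). The share was higher in gene bodies in each group, and the intervals of bodies and ends overlapped in each. Over all strengths, 7.66% of gene-body regions (6.64 to 8.79) and 4.48% of gene-end regions (3.59 to 5.52) were missing.

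**Figure D2:**
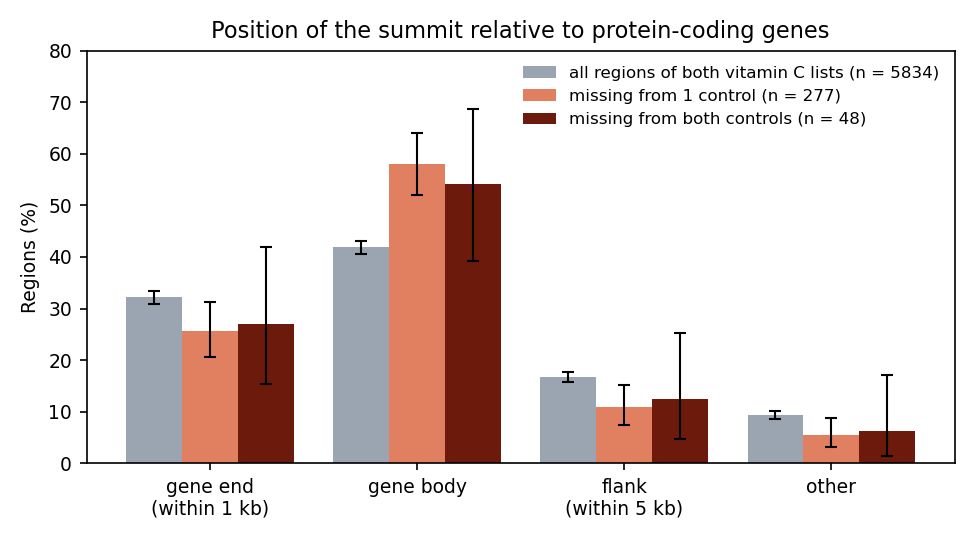
Share of regions whose strongest vitamin C summit lay at a gene end, in a gene body, in a flank or in other sequence, for all 5834 regions and for those missing from 1 and from both controls; error bars are 95% Clopper-Pearson intervals. Gene bodies hold 41.8% of all regions and 58.1% and 54.2% of those missing from 1 and from both controls.

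Where the strand of the genes was known, gene starts held a smaller share of members than of all regions. Among 281 members that could be placed with strand, 41 (14.6%, 95% interval 10.7 to 19.3) had a summit within 1 kb of a start, against 19.9% of 5044 regions. Within 1 kb of a 3′ end, where transcripts are cleaved, lay 31 members (11.0% against 12.3%), and up to 10 kb past one lay 38 (13.5% against 18.6%). Of 39 placed members missing from both controls, 2 lay at a start and 6 at a 3′ end. Members inside a single gene sat at a median of 48.4% of its length from the 5′ end, against 50.1% for all regions, and 24.7% against 32.3% lay in the last 25% of the gene.

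Regions over small RNA genes included 1 member. Genes of transfer, nucleolar or spliceosomal RNAs lay under 330 regions, at a median strength percentile of 96.3. Of these 1 was missing from a control, the region over SNORD11 (a C/D box snoRNA) inside its host gene NOP58, chromosome 2, 202292800 to 202293228. It held 20 and 14 fragments in vitamin C replicates 1 and 2, over backgrounds of 1.85 and 1.39. In control replicate 1 it held 19 fragments over a background of 4.67, at the 4.15th percentile of that list. It had no peak in control replicate 2, whose nearest peak was 1519 bp away. The 1 in 330 is 0.303%, beside 5.57% over all regions, but beside 0 of 584 and 2 of 583 in the bins of strongest regions, where most of these regions lie. None of 15 regions over microRNA genes was missing, which allows a share of up to 20%.

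The distance to the nearest control peak depends on how long the control lists are. In the deposited lists, the gap from a member to the nearest peak of a control without it had a median of 1323 bp. With lists of equal length, which gave 1520 members, the median was 3009 bp, and it was 347.5 bp where 50% of a region had to be covered. In the deposited lists the gap was at most 500 bp for 88 of 325 members (27.1%), at most 1000 bp for 144 (44.3%) and at most 10000 bp for 262 (80.6%). For the 48 regions missing from both controls the median was 1211 bp to the nearer control, and 40 lay within 10000 bp. The largest gap was 868258 bp. At 268 members that lay on a protein-coding gene or within 1 kb of one, the same gene held another peak in every control without the member in 239 cases (89.2%). For those missing from both controls this was so in 32 of 38 cases. Most members at a coding gene thus lay at a gene with another peak in each control that lacked them. The same share was not computed for the other regions of both vitamin C lists, so whether 89.2% is high was not tested.

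**Figure D3:**
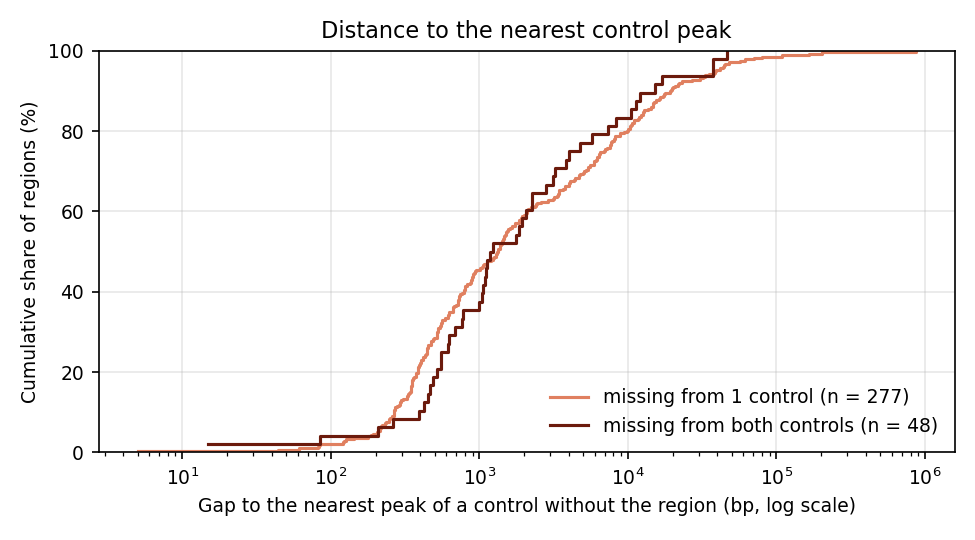
Cumulative share of members by the gap (bp, log scale) to the nearest peak of a control without them, for 277 regions missing from 1 control and 48 missing from both (nearer control). Gaps of up to 10000 bp account for 80.1% and 83.3% of them.

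The edge of the rule ran through short distances. The members closest to a peak of the control without them were at AP1AR, 5 bp from a peak of control replicate 2, at TTC19, 15 bp from a peak of control replicate 1, and at DRG1, 44 bp from a peak of control replicate 1. Just outside the rule, regions at SNX14, DCLRE1C and at CCNG1 and NUDCD2 met a control peak by 7, 9 and 27 bp. With control peaks widened by 500 bp, 242 members remained, 39 of the 48 among them still missing from both.

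The strongest region missing from both controls lay in TBCA, which encodes a tubulin folding cofactor. This region (hg38 chromosome 5, 77744074 to 77744361) stood at percentiles 61.0 and 87.8 in vitamin C replicates 1 and 2. Its summits held 18 and 20 fragments, with exact Poisson intervals of 10.7 to 28.4 and 12.2 to 30.9, over backgrounds of 1.32 and 0.977. The nearest control peaks were 11323 and 13534 bp away, so at this place TBCA was called open in the vitamin C lists alone. Next came a region in VASH1-AS1, the antisense transcript at VASH1 (chromosome 14, 76783458 to 76783715), at percentiles 62.9 and 68.3 with 18 and 13 fragments and gaps of 2893 and 2798 bp.

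SCD, which encodes the iron-containing desaturase that makes monounsaturated fatty acids, held a region of 537 bp (chromosome 10, 100357477 to 100358013) at percentiles 66.5 and 56.1, with 19 and 12 fragments. The controls had peaks 1065 and 1227 bp from it. A second SCD member near the end of the gene (100363725 to 100364232) was missing from control replicate 2 alone. At HMGB2, a chromatin protein that bends DNA, the region reached percentiles 53.6 and 68.3, and the controls had peaks at 873 and 468 bp. UBE2W, a ubiquitin-conjugating enzyme, had 21 and 11 fragments, and control peaks lay 209 and 255 bp away. Of these regions, those at UBE2W and HMGB2 were thus close to a called control peak.

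MAPKAPK5, a stress-activated kinase, held a region within 1 kb of its 3′ end at 78.4 and 35.6, the widest difference between the vitamin C libraries among the 12 strongest. Its 22 fragments in replicate 1 (interval 13.8 to 33.3) and 11 in replicate 2 (5.49 to 19.7) have overlapping intervals. Of the others, CIAO2A, a factor of cytosolic iron-sulfur protein assembly, and IARS1, the isoleucyl-tRNA synthetase, had the same values in both libraries, 16 fragments at percentile 50.1 and 11 fragments at percentile 52.1. PCNP stood at 52.8 and 56.8, GPATCH2L at 64.1 and 42.6, TEX2 at 37.3 and 61.5, and a region on chromosome X, 6642 bp from the lncRNA gene LOC124905190, at 62.9 and 52.1. TEX2 had the longest gaps of the 12, 37603 and 37714 bp. At IARS1 the nearest peaks of control replicates 1 and 2 were 521 and 1617 bp away. None of these 12 regions reached the 90th percentile in either library.

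**Figure D4:**
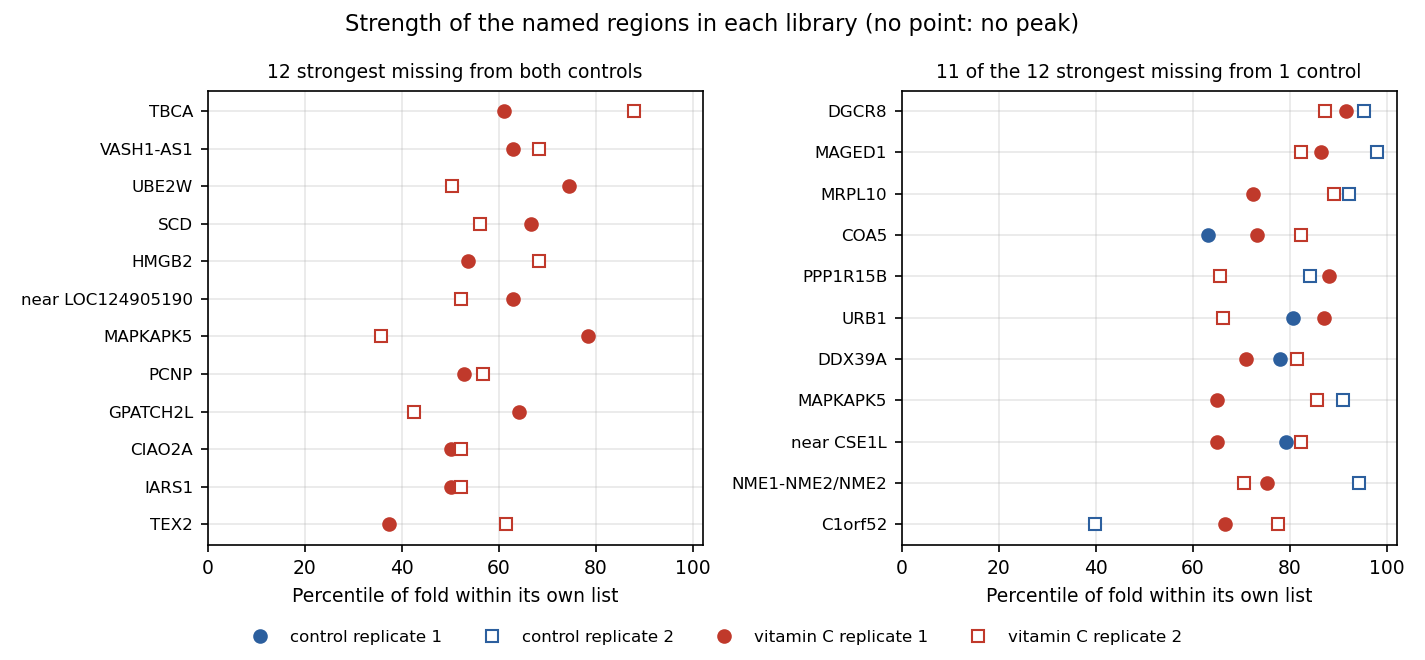
Percentile of fold within its own list (x axis) for the 12 strongest regions missing from both controls and 11 of the 12 strongest missing from 1, named by the gene they overlap or lie near; circles are replicate 1, squares replicate 2, blue control and red vitamin C, and no point means no peak. Regions on the right reach percentiles up to 97.9 in the control that holds them.

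Among the 12 strongest of each group, regions missing from 1 control reached higher, and the other control often ranked them high as well. These 12 were drawn from 277 regions, and the 12 missing from both controls from 48. Over all regions of the 2 groups the mean vitamin C percentiles were 39.1 and 35.7. At DGCR8, the RNA-binding partner of the microRNA-processing enzyme DROSHA, the region (chromosome 22, 20083114 to 20083390, 9.45% of the gene length from its 5′ end) stood at percentiles 91.6 and 87.3 in the vitamin C libraries, with 33 and 23 fragments. It stood at 95.2 in control replicate 2, with 26 fragments, and had no peak in control replicate 1, whose nearest one was 896 bp away. MAGED1, a member of the MAGE family, was similar, with 27 and 16 fragments with vitamin C and 49 (interval 36.3 to 64.8) in control replicate 2 at percentile 97.9, and none in control replicate 1, which had a peak 293 bp away. In both regions 1 control held a strong peak and the other none.

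MRPL10, a mitochondrial ribosomal protein, had 20 fragments in control replicate 2 and 27 and 20 with vitamin C. PPP1R15B, the constitutive partner of the phosphatase that reverses the integrated stress response, had 17 fragments in control replicate 2, and 27 and 13 with vitamin C. NME2, a nucleoside diphosphate kinase whose region cannot be told apart from the read-through gene NME1-NME2, had 26 in control replicate 2 and 21 and 19 with vitamin C. MAPKAPK5 had a second member near its start, with 19 fragments in control replicate 2 and 18 in each vitamin C library. C1orf52 was weaker in the control that held it, at percentile 39.9 of control replicate 2. All of these lacked a peak in control replicate 1.

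Other regions among the 12 strongest lacked a peak in control replicate 2. COA5, a factor of cytochrome c oxidase assembly, had 19 fragments in control replicate 1 and 23 and 16 with vitamin C, and the nearest peak of control replicate 2 was 5223 bp away. URB1, a ribosome assembly factor, had 27 in control replicate 1 and 41 and 27 with vitamin C. DDX39A, an RNA helicase of mRNA export, had 22 in control replicate 1 and 20 and 16 with vitamin C. A region 7118 bp past CSE1L, the export receptor of importin alpha, had 14 in control replicate 1 and 18 and 16 with vitamin C, with a peak of control replicate 2 452 bp away.

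Where a control did hold a member, its peak was weaker than that control's peaks at the other regions. The median percentile was 61.2 in control replicate 1 at the 190 members it held, against 88.4 at all 5699 regions it met. It was 45.4 in control replicate 2 at the 87 members it held, against 85.9 at 5596 regions. The summits held medians of 17 and 16 fragments, against 27 and 26.

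Some genes held more than 1 member. CSNK1E, a casein kinase that lies within the read-through gene TPTEP2-CSNK1E, held 3, of which 2 were missing from control replicate 2 and 1 from control replicate 1. DHX9, MAPKAPK5, NOP58, PSMA5, SCD, SEC31A, SLC35E3 and YLPM1 each held 2. Of these genes, NOP58, SEC31A and YLPM1 lacked both of their members in the same control, control replicate 2, while DHX9, PSMA5 and SLC35E3 lacked 1 in each control.

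Members were then counted by gene group, beside 5.57% over all regions. Cytosolic ribosomal protein genes held 88 regions at a median strength of 84.8, of which 1 was a member, a region of NKIRAS1 that lies within 1 kb of RPL15 (percentiles 6.72 and 35.7). Splicing factor genes had 2 members among 116 regions. These were at HNRNPH1 (percentiles 68.4 and 74.5 with vitamin C, 62.4 in control replicate 1) and at HNRNPM (51.1 and 76.6, and 5.90 in control replicate 1). Percentiles rank fold within lists of unlike length, so they do not compare pileup between lists. At HNRNPM the summits held 27 and 23 fragments with vitamin C, over backgrounds of 2.91 and 1.90. In control replicate 1 the summit there held 23 fragments over a background of 5.45. Translation factor genes had 1 among 68, at EEF2, the elongation factor that moves the ribosome along the mRNA (59.5 and 79.1, and 36.3 in control replicate 2). These shares were 1.14%, 1.72% and 1.47%, beside 5.57% over all regions.

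Among metabolic genes, 2 of 24 glycolysis regions were members (8.33%, beside 5.57% over all regions). LDHB, a lactate dehydrogenase subunit, was missing from both controls (percentiles 31.6 and 61.5, gaps of 760 and 778 bp), and ALDOA, an aldolase, from control replicate 1, which had a peak 191 bp away. Iron and ascorbate handling genes also had 2 of 24 (8.33%). These were at FTL, the ferritin light chain (46.7 and 52.1, and 89.5 in control replicate 1), and PCBP2, an iron chaperone and RNA-binding protein (54.9 and 26.3, and 88.7 in control replicate 2). Cholesterol and lipid synthesis genes had 6 regions, of which the 2 at SCD were members (33.3%).

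Cell cycle and transcription genes held members as well. AURKA, a mitotic kinase (percentiles 88.2 and 55.9), and CCNB2, a mitotic cyclin (82.3 and 5.93), were 2 of 16 regions of G2 and mitosis genes (12.5%, beside 5.57% over all regions). Both lacked a peak in control replicate 2. SUPT5H, an elongation factor subunit (75.8 and 9.57), and AFF4, a scaffold of the super elongation complex (7.01 and 22.3), were 2 of 28 regions of Pol II and pausing factor genes (7.14%). DNA replication genes had 1 of 33 (3.03%), at RRM1, a subunit of ribonucleotide reductase. The list of endoplasmic reticulum and translational stress genes had 1 of 19 (5.26%), at PPP1R15B. Each of these lists held 2 or fewer members, which gives no order among them.

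A further 7 lists held no member. These covered 36 regions of heat shock and chaperone genes, which allows a share of up to 8.33%, 16 of chromatin regulators, 15 of immediate early genes, 13 of NRF2 and antioxidant genes, 9 of Fe(II) and 2-oxoglutarate dioxygenases, 9 of p53 and DNA damage genes and 7 of hypoxia-responsive genes. For the 9 dioxygenase regions the limit is 33.3%. At this number of regions a share of the size seen over all regions was not detectable in any of these lists.

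The members were set beside the same count for every way to take 2 of the 4 lists. As deposited, 66.9% of the 15176 regions of both controls were missing from at least 1 vitamin C list. For pairs of 1 control and 1 vitamin C list the share was 35.3%, 33.4%, 32.6% and 29.9%, and for the vitamin C pair 5.57%. The mixed pairs are given in the order control replicate 1 with vitamin C replicates 1 and 2, then control replicate 2 with vitamin C replicates 1 and 2. Missing from both other lists were 42% of the regions of the control pair, 6.91%, 7.57%, 4.13% and 4.23% of those of the mixed pairs and 0.823% of those of the vitamin C pair. The control lists are longer, and a longer list leaves fewer regions without a peak. In lists of the same length, the 9816 peaks of lowest q in each, the vitamin C pair had 1520 of 5807 regions missing from a control (26.2%, 95% interval 25.05 to 27.3). The control pair had 34.6% (33.4 to 35.8) and the mixed pairs, in the same order, 31.1%, 27.9%, 30.3% and 27.1%. The vitamin C pair was thus the lowest of the 6, and both mixed pairs that hold vitamin C replicate 2 had overlapping intervals (26.8 to 29.2 with control replicate 1 and 25.97 to 28.3 with control replicate 2). Missing from both other lists of equal length were 8.3% of the regions of the vitamin C pair, 13.3% of those of the control pair and 9.56%, 8.45%, 8.93% and 8.05% of those of the mixed pairs, so that here 1 mixed pair lay below the vitamin C pair. The 6 pairs share libraries and are not independent.

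**Figure D5:**
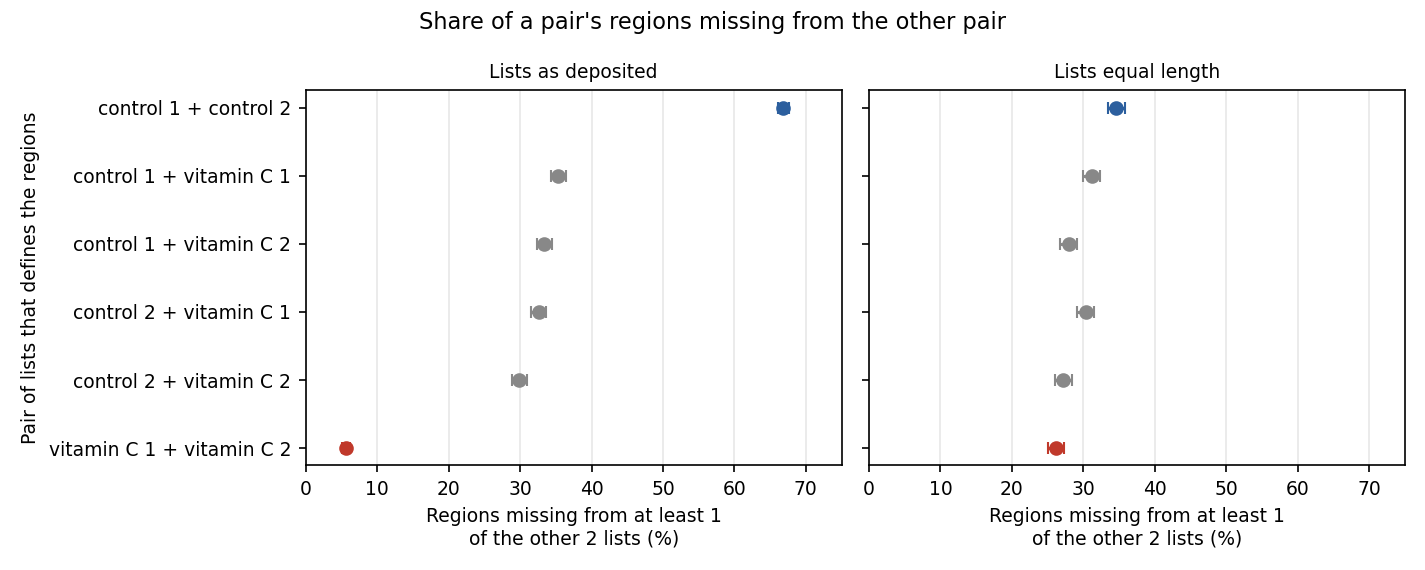
Share of the regions found in both lists of a pair that were missing from at least 1 list of the other pair, for each of the 6 pairs, with lists as deposited (left) and cut to 9816 peaks (right); red is the vitamin C pair, blue the control pair, grey mixed pairs, and bars are 95% Clopper-Pearson intervals. The vitamin C pair lies at 5.57% on the left and 26.2% on the right, the lowest of each panel.

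The lesser width, lower strength and smaller share at gene ends of the members were shared by the missing regions of every other pair. The median gap was shortest for the vitamin C pair, 1323 bp in the deposited lists against 3740 to 5043.5 bp for the other pairs. In lists of equal length it was 3009 bp against 3746.5 to 4881.5 bp. Shares in gene bodies were not compared between pairs. In all 12 sets, the 6 pairs with deposited lists and with lists of equal length, the regions missing from another list were narrower, weaker and less often at gene ends than the regions of that pair as a whole. In lists of equal length the missing regions of the vitamin C pair had a median width of 432.5 bp against 548 bp, and those of the control pair 557 bp against 841.5 bp. At gene ends lay 25.3% of the missing regions of the vitamin C pair against 32.2% of all, and 29.5% against 32.8% for the control pair.

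Peaks seen in 1 library alone were fewer with vitamin C, a difference that a test with 2 libraries per group could not establish. The choice of members used the overlap of the vitamin C lists with each other and with the controls. This count is therefore not independent of that choice. In lists of equal length, 17.1% and 19.5% of the peaks of vitamin C replicates 1 and 2 met no peak of another library, against 21.6% and 21.7% in the controls. The means were 18.3 ± 1.69% with vitamin C and 21.7 ± 0.0360% in the controls (SD, n = 2), a difference of -3.40 percentage points that exceeded the spread between replicates. In an exact permutation test (two-sided) p = 0.333, and no smaller value is possible with 2 libraries per group. The difference was -30.4 points in the lists as deposited and -0.988 points at a fold of at least 5 (exact permutation p = 0.667).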

How the data were processed

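Build hg38 and MACS2 2.2.7.1, Bowtie2 2.4.5, deepTools, bcl2fastq 2.19, cutadapt and Trim Galore are named per the submitters' processing notes, without settings. The authors deposited a peak list per labelled library, with each peak's fold enrichment (a linear ratio over background), −log10 p, −log10 q and summit offset. The highest deposited q was 0.00999. Peaks outside chromosomes 1 to 22 and X (4.23% to 5.06% of a list) were left out.

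Regions were merged where peaks shared at least 1 bp. Fold was used only to rank peaks within a list. Pileup was solved from fold = (pileup + 1)/(background + 1) and the Poisson p, within 0.005 in −log10 p. Vitamin C replicate 1 needed its labelled fragments scaled by 0.776. Gene positions and names came from RefSeq (GRCh38.p14), where exons are not given. Strand and starts came from a table of promoter sequences that holds no start on chromosome 8. A member at a gene without a known strand was left out of the stranded counts. Group values were compared by exact permutation tests. No enrichment test was made.

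Named regions were, by rule, the 12 strongest members missing from both and from 1 control, up to 3 per gene list, those over small RNA genes and those at the edge of the rule. A few of the items these rules name are not reported here. The members, the gene lists and the HEK293T markers were chosen with earlier results of these data known. The 5 printed starts, genes with several members and the stranded positions were chosen after seeing the data. Alternatives were equal list lengths, stricter q and fold, other overlaps, windows and chromosomes, a block for replicate number and dropping single libraries. Python 3.11.15, numpy 2.4.6, pandas 2.3.3 and scipy 1.17.1 were used. Calls were tested on 3000 simulated regions with 300 planted members, and 100% were right. The simulated regions lay far apart, so calls close to a control peak, as at the edge of the rule, were not tested.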

Additional observations from a re-analysis of the deposited data

How the results depend on the processing

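The number of members followed the lengths of the lists. Lists of equal length gave 1520 members and 482 missing from both, with a mean percentile of 40.8, a gap of 3009 bp, a width of 432.5 bp and a flank share of 15.3%. They held 322 of the 325 members and all 48. A −log10 q of at least 5 gave a mean percentile of 51.2, and 299 members of which 153 were among the 325. The same limit in the vitamin C lists alone gave 153 and 22, with a percentile of 52.6, a width of 307 bp, and shares of 31.4% at gene ends, 5.23% in flanks and 3.27% in other sequence. A fold of at least 5 gave 77 missing from both, a percentile of 53.4 and a width of 390 bp. Requiring 50% of a region to be covered gave 526 and 84, with a percentile of 40.2, a gap of 347.5 bp and a width of 453 bp. Control peaks widened by 500 bp gave 37.5, 2700 bp and 351.5 bp, summits outside the control peaks 39.0, 922 bp and 376 bp, and bases shared by both lists a gap of 1074 bp and a width of 210.5 bp. All sequences gave 8.63% in other sequence. Windows of 0.5 and 2 kb gave 14.5% and 35.7% at gene ends and 64.9% and 50.2% in gene bodies, and the former 15.1% in flanks. Lengths, thresholds and widening change the counts by construction, and the cause of the other shifts was not tested.

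With 1 library dropped at a time there were 135 to 2058 members and 519 to 755 missing from both, mean percentiles of 35.8 to 38.6, gaps of 1243 to 1639 bp, widths of 252 to 362.5 bp, and shares of 16.4% to 26.1% at gene ends, 54.6% to 65.6% in gene bodies, 7.41% to 13.4% in flanks and 5.19% to 7.68% in other sequence. Members numbered 238 without control replicate 1, 135 without control replicate 2, 2058 without vitamin C replicate 1 and 1774 without vitamin C replicate 2. In the latter settings 1 list stands for its condition. The difference in peaks met by no other library kept its sign in each setting run, between -6.44 and -2.66 points without each library. With replicate number as a block it was -3.40 points, and the share of vitamin C peaks not met by a control of the same number was 13% against 12.9% over all pairings. As a check of pairing, replicate 1 minus replicate 2 was compared between conditions over the 5509 regions found in all lists, and r was 0.0061, across regions that are not independent.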

Other observations

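Of the 325 members, 98 were members under each of 9 alternatives that keep all 4 libraries, and 14 of the 48 regions missing from both controls were missing from both under each. Several alternatives cannot remove a member by construction. These were partial coverage, summits outside the control peaks, shared bases and all sequences, and each kept all 325 and all 48. Lists of equal length kept 322 members. The q limits, the fold limit and the widened control peaks kept 153, 165 and 242. The 14 regions, selected after their values were seen, were TBCA, VASH1-AS1, SCD, the region near LOC124905190, the MAPKAPK5 region near the 3′ end, PCNP, GPATCH2L, CIAO2A, IARS1, TEX2, MTO1, PPA2, SLIT2 and ZFP90. MTO1, an enzyme of mitochondrial tRNA modification, had 16 and 13 fragments in vitamin C replicates 1 and 2. PPA2, the mitochondrial pyrophosphatase, had 26 and 15. SLIT2, an axon guidance ligand, had 15 and 10, as did ZFP90, a zinc finger protein.

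By chromosome, the share of regions that were members ran from 2.47% of 81 on chromosome 13 and 3.02% of 397 on chromosome 6 to 9.57% of 188 on chromosome 22 and 9.76% of 164 on chromosome 15. The differences between chromosomes were not tested.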
